A study of Mus musculus with 16 samples.

Results

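The lysosomal hydrolases and lysosomal membrane proteins examined here were a named list of 37 genes that left out the cathepsins and the subunits of the proton pump. A gene was measured through the array features that named it and no other gene, and where several did, the feature with the highest mean over the 16 arrays was used. On that rule 36 of the 37 genes were measured, out of 22180 genes with a feature of their own, and all 36 passed the filter on low values that left 15526 genes to test. Glb1, the lysosomal β-galactosidase, was not measured, because its feature also names Tmppe. The 36 genes fell into 6 roles: breakdown of sphingolipids, of glycosaminoglycans, of glycogen and glycoprotein sugars, of proteins, and of other lipids and cholesterol, and proteins of the lysosomal membrane. The protein role held the proteases Tpp1 and Lgmn, and also Ppt1, which removes fatty acids from proteins, and Grn, the progranulin gene.

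Expression was measured on 16 one-colour arrays of total RNA from bone marrow-derived macrophages of male C57BL/6 mice aged 5 weeks. All cultures had macrophage colony-stimulating factor (M-CSF), and all but those at 0 h also had RANKL, the cytokine that makes macrophages form osteoclasts, which dissolve bone. The control arm received DW, as the labels call it, and the other arm dimethyl α-ketoglutarate at 1 mM (αKG), the ester form of a tricarboxylic acid cycle intermediate. The question was how αKG changes osteoclast formation. At 0 h there were 2 arrays, from cultures given DW and M-CSF but no RANKL. DW with RANKL was sampled at 3 and 6 h (early), 12 and 24 h (intermediate) and 48 and 72 h (late), and αKG with RANKL at 0.5 and 1 h (fast) and at the same 3 phases. Each condition had 1 array per time, so a phase held 2 arrays of different times, and the labels do not tell whether separate cultures or animals were used for each array. The p-values therefore measure only the spread between these arrays.

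The lysosome is the acidic compartment in which enzymes take apart sugars, lipids and proteins that reach it by endocytosis, phagocytosis or autophagy, and its membrane carries channels, transporters and heavily glycosylated proteins that shield it from its own enzymes. Many of its genes are known to be controlled together by the transcription factors TFEB, TFE3 and MITF, which bind an E-box with the core CACGTG and which are held in the cytoplasm when nutrients are plentiful. An osteoclast fuses lysosomes with the membrane that faces bone and releases their enzymes onto the matrix, so lysosomal products serve resorption as well as digestion inside the cell.

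RefSeq promoter windows (GRCm38.p6, from 250 bases before to 50 bases after the annotated start) were found for 35 of the 37 genes, and were scanned for CACGTG, which reads the same on both strands. The motif was present for 10 of these 35 genes (28.6%): Arsa, Cln3, Gaa, Gla, Glb1, Lamp1, Lgmn, Mcoln1, Naglu and Sgsh. Over all 27025 genes with such a window the share was 8.09%. The longer form TCACGTG, searched on both strands and containing the shorter one, was present in the same 10 genes and in 4.29% of all genes. The 6 stretches that follow are examples from genes described later, each of which was called higher at 72 h than at 48 h. Arsa, also called there, Gla and Cln3, not called there, and Glb1, not measured, are not shown. The stretches run 5′ to 3′ on the strand of the gene, lie before the annotated start, and have 1 copy of CACGTG in capitals.
Sgsh, chr11:119355511-119355564, minus strand: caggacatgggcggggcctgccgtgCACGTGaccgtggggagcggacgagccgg
Naglu, chr11:101069996-101070051, plus strand: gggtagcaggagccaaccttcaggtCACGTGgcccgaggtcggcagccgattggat
Gaa, chr11:119267798-119267853, plus strand: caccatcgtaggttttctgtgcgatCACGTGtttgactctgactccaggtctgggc
Lamp1, chr8:13159091-13159146, plus strand: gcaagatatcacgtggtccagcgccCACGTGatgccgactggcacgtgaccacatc
Mcoln1, chr8:3500449-3500504, plus strand: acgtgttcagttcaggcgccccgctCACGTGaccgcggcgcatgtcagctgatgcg
Lgmn, chr12:102439111-102439166, minus strand: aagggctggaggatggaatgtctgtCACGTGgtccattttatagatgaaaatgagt
The capital motif begins 29 bases before the start of Sgsh, 73 before Naglu, 140 before Gaa, 45 before Lamp1, 45 before Mcoln1 and 49 before Lgmn. The Lamp1 window held 4 copies in all and that of Mcoln1 held 2. These are matches of letters, and binding was not measured.

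The deposited values are on a log2 scale, and a difference of 1 means a doubling. Array medians lay between 4.84 and 4.93. The 2 arrays at 0 h differed with a standard deviation of 0.0854 over the lysosomal genes and 0.196 over all genes tested. The lowest mean correlation with the other arrays, 0.928, was that of DW at 72 h, and the highest was 0.975. Markers of macrophages averaged 10.77 to 10.79 at 0 h, 9.87 to 10.63 in late DW and 10.33 to 10.73 in late αKG, while markers of osteoclasts averaged 5.30 to 5.31 at 0 h, 9.32 to 11.07 in late DW and 7.57 to 9.09 in late αKG. Against 0 h, 6 of the 8 osteoclast markers were called higher in late DW and 5 in late αKG (limma, adjusted p under 0.05). By sign alone, 8 and 7 of them were higher. Of all genes tested, 6.64% and 1.43% were called in either direction. Neutrophil markers averaged 7.90 to 7.93 at 0 h, 5.17 to 5.44 in late DW and 5.29 to 5.93 in late αKG, and all 9 fell in each arm. Markers of B cells, T cells, erythroid cells and mast cells averaged at most 5.11 on any array, and stromal markers at most 6.01. In such bulk samples fewer cells of a type and less RNA per cell cannot be told apart.

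**Figure D1:**
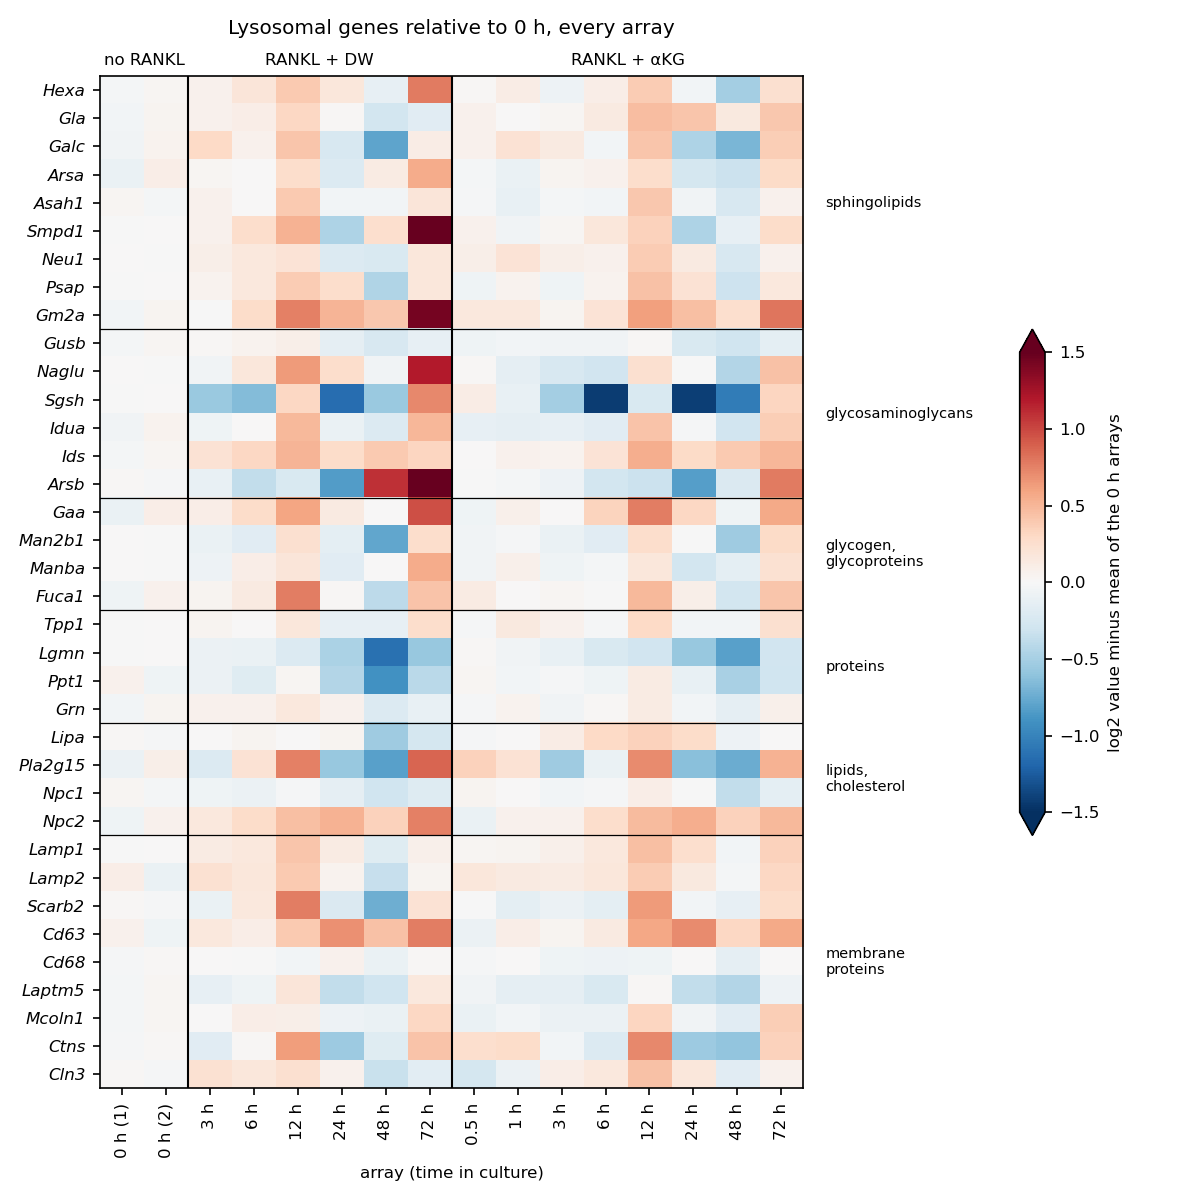
Heat map of the 36 lysosomal genes (rows, by role) on all 16 arrays (columns), coloured by log2 value minus the mean of the 0 h arrays and capped at 1.5 in either direction. Most rows are red at 12 h and again at 72 h in both arms and paler or blue at 24 and 48 h, and Arsb, Smpd1 and Gm2a are darkest in the DW array at 72 h.

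The lysosomal genes differed widely in how far they varied. The range over the 16 arrays had a median of 0.871 for the lysosomal genes and 0.742 for all genes tested. Arsb had the widest range, 3.49, followed by Sgsh with 2.16 and Smpd1 with 1.97. Cd68, a membrane glycoprotein used as a macrophage marker, had the narrowest, 0.20, and read between 12.42 and 12.62 on every array.

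RANKL with DW was compared with 0 h to see which lysosomal genes changed as osteoclasts formed. In the late phase 5 of the 36 genes passed limma's moderated test at an adjusted p under 0.05, against 6.64% of all genes tested. Arsb, Npc2 and Cd63 rose (3 genes, against 3.34% of all genes higher), and Lgmn and Lipa fell (2 genes, against 3.3% lower). The median change was 0.03 for the lysosomal genes and −0.001 for all genes. For scale, the osteoclast enzymes Ctsk (cathepsin K), Acp5 (tartrate-resistant acid phosphatase) and Mmp9 (a matrix protease) rose by 6.54 ± 0.44, 4.96 ± 0.44 and 6.90 ± 0.59.

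Arsb encodes arylsulfatase B, which removes sulfate from dermatan and chondroitin sulfate. It read 8.65 and 8.61 at 0 h and, with DW, 8.52, 8.26, 8.40, 7.79, 9.73 and 11.28 at 3, 6, 12, 24, 48 and 72 h. The arrays at 48 and 72 h were above every earlier array of the arm, and the lowest value was that at 24 h. The late change was 1.87 ± 0.44 (adjusted p = 0.0287, limma), and it was 2.65 without the 48 h array and 1.10 without the 72 h array. The mean of its 2 features gave 1.93.

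Npc2, the soluble protein that hands cholesterol to Npc1 for export, read 11.27 and 11.39 at 0 h and 11.49, 11.61, 11.78, 11.85, 11.68 and 12.09 over the DW course. Every DW array was above both 0 h arrays, and the late change was 0.56 ± 0.13 (adjusted p = 0.0267, limma). Cd63, a tetraspanin of late endosomes and lysosomes, read 9.27 and 9.14 at 0 h and 9.36, 9.30, 9.60, 9.89, 9.64 and 9.97 with DW. It too was above 0 h on every DW array, with a late change of 0.60 ± 0.15 (adjusted p = 0.0406, limma).

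Lgmn encodes legumain, a protease that cuts after asparagine. It read 11.73 and 11.75 at 0 h and 11.65, 11.64, 11.53, 11.26, 10.62 and 11.17 with DW, falling at each step to 48 h and standing higher at 72 h. The late change was −0.84 ± 0.19 (adjusted p = 0.0244, limma). Lipa, the acid lipase that frees cholesterol and fatty acids from lipoproteins, read 12.12 and 12.08 at 0 h, then 12.10, 12.14, 12.11 and 12.14 up to 24 h with DW, and 11.57 and 11.84 at 48 and 72 h. The 2 late arrays alone lay below both 0 h arrays, and the change was −0.39 ± 0.09 (adjusted p = 0.029, limma). Without the 48 h array the Lgmn change was −0.57 and the Lipa change −0.26, neither past the threshold.

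The other 31 genes did not pass in late DW. Gm2a, the activator protein that presents the GM2 ganglioside to its enzyme, read 9.97 and 10.05 at 0 h and 10.41 and 11.44 at 48 and 72 h, with a change of 0.91 ± 0.28 (adjusted p = 0.0789, limma). Smpd1, the acid sphingomyelinase, read 7.71 and 7.73 at 0 h and 7.97 and 9.23 in the late arrays, with a change of 0.88 ± 0.40. Ppt1, which removes fatty acids from proteins, read 10.35 and 10.23 at 0 h and 9.38 and 9.88 late, with a change of −0.66 ± 0.18 (adjusted p = 0.0577, limma). All 5 calls were lost when either 0 h array was left out, which leaves a single array to stand for 0 h, and in a fit of the 2 groups alone. Leaving out either late DW array leaves a single array for that phase. The genes called were then all higher without the 48 h array and all lower without the 72 h array. Over the runs with an array left out, the number called among all genes moved as well. With arrays centred on their medians 2 genes were higher and 3 lower.

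No lysosomal gene passed limma's test in DW early (0.341% of all genes), DW intermediate (0.779%), αKG fast (0%), αKG early (0.502%), αKG intermediate (0.67%) or αKG late (1.43%) against 0 h. At an unadjusted p under 0.05, 0, 4, 0, 1, 7 and 5 of the 36 genes were counted in those comparisons, in that order. Of all 15526 genes tested, 952, 1389, 540, 1249, 1463 and 1838 were counted at that threshold. All these comparisons share the 0 h arrays. Each phase also joins 2 times, and the gap between them is averaged in the mean and enters the error. With DW, Sgsh read 8.81 at 12 h and 7.35 at 24 h, and Pla2g15 8.16 at 48 h and 9.84 at 72 h. A gene high at 1 time of a phase and low at the other can therefore be missed. In late αKG the changes from 0 h were 0.28 ± 0.44 for Arsb, 0.41 ± 0.13 for Npc2, 0.44 ± 0.15 for Cd63, −0.55 ± 0.19 for Lgmn and −0.03 ± 0.09 for Lipa. Ctsk, Acp5 and Mmp9 rose there by 5.26 ± 0.44, 3.69 ± 0.44 and 5.73 ± 0.59. A straight line in log2 time called 0 of the 36 genes in DW (3.35% of all genes), 0 in αKG (0.535%) and 0 for the difference in slope (0%). At an unadjusted p under 0.05 limma counted 8, 0 and 0 of them, and 2886, 1858 and 596 of all 15526 genes tested. Such a line cannot follow values that go up at 12 h and down at 24 h.

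**Figure D2:**
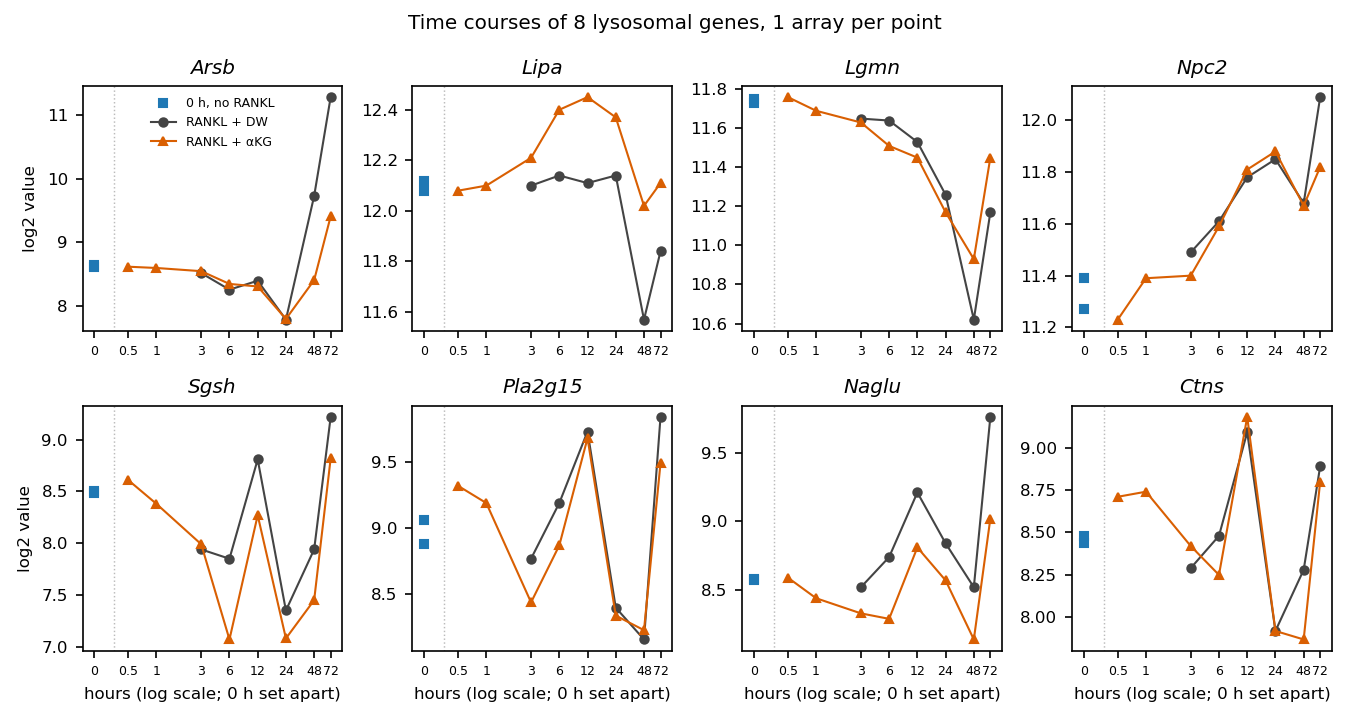
Log2 values of 8 lysosomal genes against time (log axis, 0 h set apart), 1 array per point, for 0 h (squares), DW (circles) and αKG (triangles). Arsb parts between the arms at 48 and 72 h, Lipa is higher with αKG at all 6 matched times, and Sgsh, Pla2g15, Naglu and Ctns peak at 12 h and rise again at 72 h in both arms.

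Many of the genes read higher at 12 h and at 72 h than at the times beside them, in both arms. Comparisons of single times, over both arms together and with the arm as a term, were added after these profiles had been seen, so their p-values are not independent of the choice. At 12 h against the mean of 6 and 24 h, 15 of the 36 genes passed limma's test and all were higher, against 7.58% of all genes higher and 15.2% called in either direction. The median difference was 0.28 for the lysosomal genes and −0.01 for all genes. At 72 h against 48 h, 23 of the 36 genes passed and all were higher, against 8.21% higher and 19.6% called in either direction, with medians of 0.47 and −0.01. Among the 5650 genes at least as bright as the dimmest lysosomal gene (mean of 7.12 or more), 12.5% were higher in each comparison.

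By sign alone, 35 of the 36 genes read higher at 72 h than at 48 h in both arms (97.2%), which 33.2% of all genes did, and the exception was Ids. At 12 h, 29 of the 36 (80.6%) were above both 6 and 24 h in both arms, against 21.6% of all genes. Both patterns together held for 28 genes (77.8%), against 14.4% of all genes. The 8 genes outside were Ids, Arsb, Lgmn, Lipa, Npc2, Cd63, Cd68 and Mcoln1.

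Among the glycosaminoglycan enzymes, Sgsh (heparan N-sulfatase) had the largest difference between 12 h and the mean of 6 and 24 h of all the lysosomal genes. At 0 h Sgsh read 8.49 and 8.50, above its 6 and 24 h arrays in both arms and above its 12 h array with αKG. With DW it read 7.94, 7.85, 8.81, 7.35, 7.94 and 9.22 from 3 to 72 h, and with αKG 7.99, 7.07, 8.27, 7.08, 7.45 and 8.82. The 12 h and 72 h arrays were the 2 highest of these times in each arm, and the 24 h array with DW and the 6 h array with αKG the lowest. The differences were 1.20 ± 0.15 at 12 h (adjusted p = 0.00102) and 1.33 ± 0.17 at 72 h (adjusted p = 0.00114, limma). Naglu, which acts in the same breakdown of heparan sulfate, read 8.52, 8.74, 9.21, 8.84, 8.52 and 9.76 with DW and 8.33, 8.29, 8.81, 8.57, 8.14 and 9.02 with αKG. It was 0.40 ± 0.11 higher at 12 h and 1.06 ± 0.13 higher at 72 h. Idua, the iduronidase, passed in both comparisons as well (0.53 ± 0.08 and 0.67 ± 0.10), while Gusb, Ids and Arsb passed in neither. For Arsb the 72 h difference was 1.28 ± 0.44 (adjusted p = 0.0715, limma).

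Pla2g15, the lysosomal phospholipase, had the largest step from 48 to 72 h. It read 8.88 and 9.06 at 0 h, then 8.77, 9.19, 9.73, 8.40, 8.16 and 9.84 with DW and 8.44, 8.87, 9.68, 8.34, 8.23 and 9.49 with αKG. In both arms the 24 and 48 h arrays were below 0 h and the 12 and 72 h arrays above it. The differences were 1.00 ± 0.11 at 12 h (adjusted p = 0.000607) and 1.47 ± 0.13 at 72 h (adjusted p = 0.000282, limma), and 0.87 and 1.07 with the mean of its 2 features. Npc2 passed at 72 h alone (0.28 ± 0.08), and Lipa and Npc1 at neither time, with 72 h differences of 0.18 ± 0.08 and 0.16 ± 0.08.

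Of the 9 sphingolipid genes measured, 3 passed at 12 h and 5 at 72 h. Galc, which splits galactosylceramide, was higher by 0.59 ± 0.11 and 0.98 ± 0.13, and Psap, the precursor of the saposins that help these enzymes reach their lipids, by 0.24 ± 0.06 and 0.55 ± 0.07. Hexa, a subunit of β-hexosaminidase, passed at 72 h only (0.83 ± 0.12), as did Gm2a (0.79 ± 0.14) and Arsa (0.53 ± 0.14). Asah1, the acid ceramidase, passed at 12 h (0.43 ± 0.07) and missed at 72 h (0.26 ± 0.08, adjusted p = 0.0526, limma). Gla, Neu1 and Smpd1 passed at neither, with 72 h differences of 0.18 ± 0.15, 0.35 ± 0.13 and 0.83 ± 0.26.

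All 4 enzymes that act on glycogen and glycoprotein sugars passed at 72 h, and all but Manba at 12 h. Man2b1, the α-mannosidase, read 10.47 at 12 h and 10.49 at 72 h with DW, and 10.08 and 9.44 at 24 and 48 h. With αKG it read 10.49 and 10.51 at 12 and 72 h, and 10.22 and 9.69 at 24 and 48 h, so the peaks were nearly level between arms and the trough at 48 h was in each. Its differences were 0.38 ± 0.08 and 0.93 ± 0.09, those of Fuca1, the α-fucosidase, 0.58 ± 0.10 and 0.75 ± 0.11, and those of Gaa, the acid α-glucosidase that degrades glycogen, 0.42 ± 0.12 and 0.80 ± 0.14. Among the genes of the protein role Tpp1, a tripeptidyl peptidase, passed at both times (0.28 ± 0.06 and 0.33 ± 0.07). Lgmn (0.53 ± 0.12) and Ppt1 (0.34 ± 0.11) passed at 72 h only, and Grn, the progranulin gene, at neither.

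Among the 9 membrane proteins, Ctns, the exporter of cystine, peaked most. It read 8.29, 8.48, 9.09, 7.92, 8.28 and 8.89 with DW and 8.42, 8.25, 9.18, 7.92, 7.87 and 8.80 with αKG, against 8.44 and 8.48 at 0 h. The differences were 0.99 ± 0.12 at 12 h (adjusted p = 0.000896) and 0.77 ± 0.14 at 72 h (adjusted p = 0.00464, limma). Scarb2, the receptor that carries glucocerebrosidase to the lysosome, was higher by 0.76 ± 0.16 and 0.68 ± 0.18, Laptm5 by 0.36 ± 0.08 and 0.41 ± 0.10, and Lamp1 by 0.26 ± 0.07 and 0.32 ± 0.08. Lamp2 (0.37 ± 0.11) and the calcium channel Mcoln1 (0.48 ± 0.12) passed at 72 h only, and Cd63, Cd68 and Cln3 at neither.

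Between the peaks, at 48 h against 24 h, 3 of the 36 genes passed limma's test, all lower (0.818% of all genes lower, 1.11% called in either direction): Psap by −0.62 ± 0.07, Man2b1 by −0.58 ± 0.09 and Lipa by −0.46 ± 0.08. By sign, 27 of the 36 (75%) were lower at 48 h than at 24 h in both arms, against 30.7% of all genes. The last time, 72 h, has only 48 h beside it, and the steps into and out of 48 h share its arrays. A low 48 h value thus enters both steps, and a call at 72 h does not place a gene above 0 h. Pla2g15 was above both 0 h arrays at 72 h in each arm, while Ppt1 was below them. Each time rests on 1 array per arm, so culture time and anything else shared by the arrays of a time cannot be told apart. Left out singly, the 12 h arrays mattered most for the first comparison: 5 genes passed without the DW array and 4 without the αKG array, and 9 without either the DW array at 24 h or the αKG array at 6 h. For the last step 13 genes passed without the DW array at 48 h, and in each of these cases all were higher and among those called with every array. At 48 h against 24 h no gene passed without the 24 h array of either arm or without the DW array at 48 h. Sgsh, Pla2g15 and Ctns passed in both peak comparisons in every alternative run. The 12 h calls of Naglu and Gaa were each kept in 4 of 13 such runs, and that of Lamp1 in 5. At 72 h those of Naglu and Gaa were kept in 11 of 11, and that of Lamp1 in 7.

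**Figure D3:**
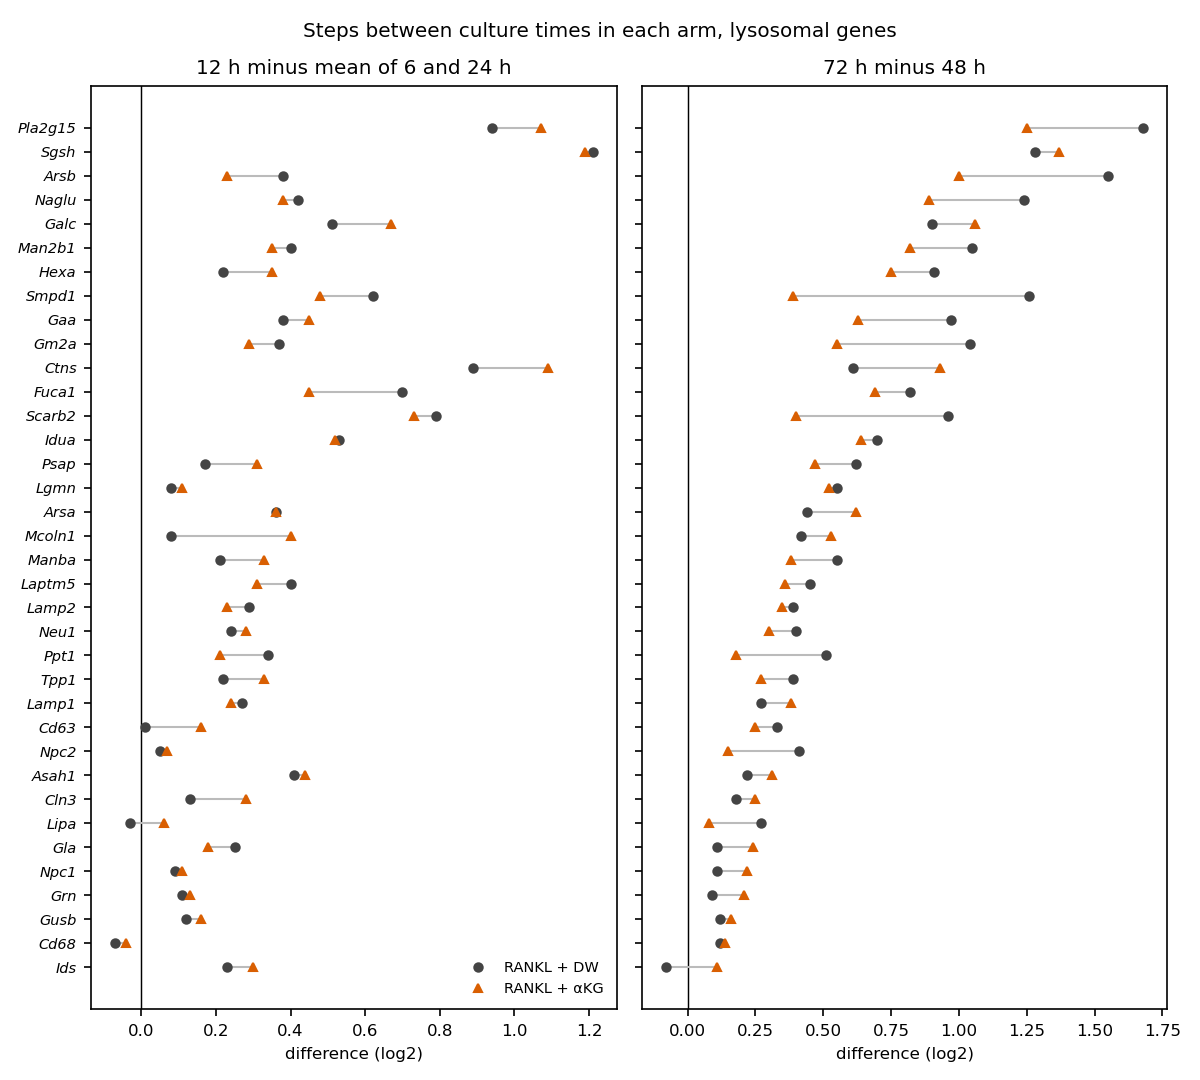
Difference between culture times within each arm for the 36 lysosomal genes, 12 h minus the mean of 6 and 24 h (left) and 72 h minus 48 h (right), in log2 units, with DW as circles and αKG as triangles. Nearly all points lie right of 0 in both panels, and only Ids with DW lies left of 0 in the right panel.

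The same steps were read beside the promoter windows printed above. At 72 h the median difference was 0.53 for the 9 measured genes with the motif, of which 7 were called, and 0.47 for the 25 without it, of which 16 were called. At 12 h the medians were 0.26 and 0.28, with 4 of 9 and 10 of 25 called.

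Other lists were read at the same hours, where 15.2% of all genes tested were called at 12 h and 19.6% at 72 h (7.58% and 8.21% higher). Of 27 autophagy genes, 15 were higher at 12 h (55.6%) and 11 at 72 h (40.7%), and none was lower. Map1lc3b, which coats the autophagosome, was higher by 0.97 ± 0.10 and 1.20 ± 0.11. Ulk1, a kinase that starts autophagy, was higher by 1.19 ± 0.13 and 1.13 ± 0.15, and Calcoco1 by 1.10 ± 0.13 and 1.19 ± 0.15. Of 22 other lysosomal enzymes 7 were higher at 12 h, and at 72 h 11 were higher and 1 lower, with the carboxypeptidases Prcp (0.76 ± 0.08 and 0.72 ± 0.10) and Scpep1 (0.44 ± 0.06 and 0.53 ± 0.07) called both times. Of 32 other lysosomal membrane proteins 12 were higher and 1 lower at 12 h, and 12 were higher and none lower at 72 h, among them Slc38a9, an amino acid transporter (0.80 ± 0.13 at 72 h), and Atp13a2 (0.89 ± 0.12 at 12 h). Of 28 genes that sort proteins to the lysosome 3 were higher and 2 lower at 12 h, and 4 were higher and 1 lower at 72 h. That is 17.9% called at each time, near the share over all genes. Sort1, the sorting receptor sortilin, was higher by 1.06 ± 0.14 and 1.17 ± 0.16. Igf2r, the large mannose phosphate receptor, was lower by 0.56 ± 0.10 at 12 h than the mean of 6 and 24 h. With DW at 6, 12 and 24 h, Sort1 read 8.23, 8.41 and 6.68, and Igf2r 8.54, 8.43 and 9.56. At 72 h Sort1 read 7.49 with DW and 7.70 with αKG, below 8.14 and 8.29 at 0 h.

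Among 26 regulators of lysosomal genes and of the kinase mTOR, 8 were higher and 2 lower at 12 h and 7 were higher and 4 lower at 72 h. Flcn, Fnip1 and Rragd belong to the machinery that relays amino acid supply to mTOR and TFEB. Flcn was higher by 0.74 ± 0.11 and 0.66 ± 0.12, Fnip1 by 0.56 ± 0.08 and 0.60 ± 0.10, and Rragd by 1.16 ± 0.17 at 72 h. Rheb, the activator of mTOR, was lower by −0.38 ± 0.08 and −0.42 ± 0.09, and Rptor, an mTOR partner, by −0.56 ± 0.11 at 72 h. Of the transcription factors, Tfec was higher at both times (0.70 ± 0.15 and 0.65 ± 0.17) and Tfeb at 72 h (0.48 ± 0.14, adjusted p = 0.0367, limma) with 0.25 ± 0.12 at 12 h. Tfe3 (0.01 ± 0.08 and 0.20 ± 0.10) and Mitf (−0.36 ± 0.12 and −0.11 ± 0.14) passed at neither. The transcript level says nothing of where these proteins are in the cell.

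Osteoclast genes were read at the same times. Ctsk read 5.76, 6.00, 6.33, 7.38, 11.67 and 12.58 with DW and 5.84, 5.59, 6.32, 6.67, 10.18 and 11.50 with αKG, rising from 6 h on in each arm. At 12 h against 6 and 24 h the differences were −0.09 ± 0.28 for Ctsk, −0.20 ± 0.26 for Acp5 and −0.63 ± 0.18 for Mmp9, of which only Mmp9 passed. At 72 h Ctsk (1.12 ± 0.32) and Mmp9 (0.97 ± 0.21) were higher and Acp5 read 0.87 ± 0.30. Of the 7 macrophage markers 1 was higher at 12 h and 3 at 72 h, and of the 9 neutrophil markers 2 were higher at 12 h and 4 lower at 72 h. The part of these cell types in the lysosomal steps was not tested.

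αKG was compared with DW at the 6 shared times, with time as a block. As 1 effect over all times, 1 of the 36 genes passed limma's test, against 0.399% of all genes. This was Lipa, which read 12.21, 12.40, 12.45, 12.37, 12.02 and 12.11 with αKG from 3 to 72 h against 12.10, 12.14, 12.11, 12.14, 11.57 and 11.84 with DW. It was higher with αKG at 6 of 6 times, and at 3, 6, 12 and 24 h the αKG arrays were also above both 0 h arrays. The effect was 0.28 ± 0.05 (adjusted p = 0.0483, limma), with an adjusted p from 0.0333 to 0.194 over its alternatives, and it was no longer past the threshold without the pair of arrays at 6, 12, 24 or 48 h. Ppt1 was also higher at 6 of 6 times (0.19 ± 0.06, adjusted p = 0.226), which makes 5.56% of the lysosomal genes against 4.36% of all genes. Hexa, Gusb, Naglu and Cd68 were lower at 6 of 6 times (11.1%, against 3.98% of all genes), with Naglu at −0.41 ± 0.07 (adjusted p = 0.0602, limma) and none past the threshold. The median effect was −0.03 for the lysosomal genes and 0 for all genes. Mmp9 was lower by −0.80 ± 0.12 (adjusted p = 0.0369, limma), while Ctsk and Acp5 did not pass.

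No lysosomal gene passed limma's test for αKG against DW at 3 and 6 h (0.161% of all genes) or at 12 and 24 h (0.0966%). An unadjusted p under 0.05 was found for 3 and 5 of the 36, and for 1324 and 1452 of all 15526 genes tested. At 48 and 72 h 7 of the 36 genes passed (19.4%), against 4.27% of all genes tested. Arsb, Hexa, Naglu and Smpd1 were lower with αKG (2.18% of all genes lower) and Gla, Lipa and Lgmn were higher (2.09% higher). The median effect was −0.03 for the lysosomal genes and 0.01 for all genes. Ctsk, Acp5 and Mmp9 were lower by −1.28 ± 0.18, −1.27 ± 0.14 and −1.18 ± 0.13, and all 8 osteoclast markers were lower, while 1 of 7 macrophage markers and 2 of 9 neutrophil markers were higher. The part of these cell types in the lysosomal differences was not tested.

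**Figure D4:**
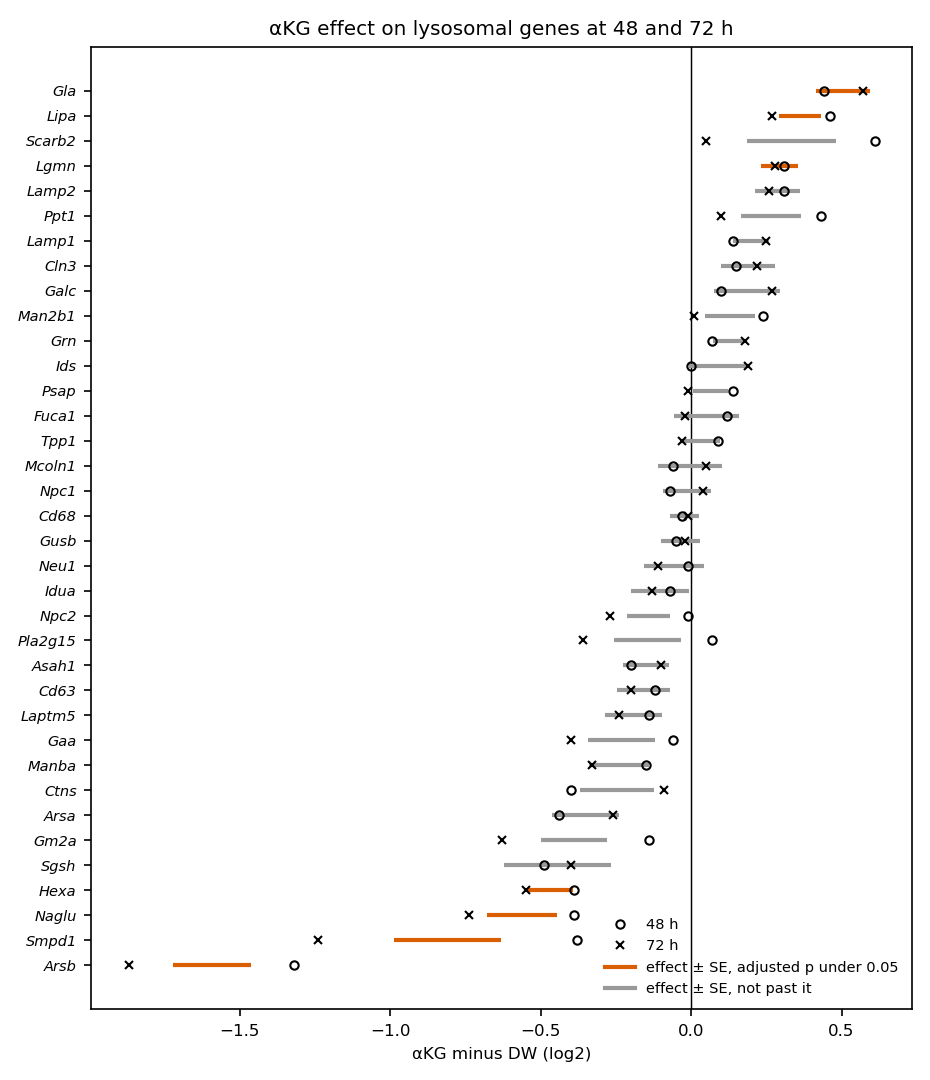
αKG minus DW for the 36 lysosomal genes, in log2 units, at 48 h (circles) and 72 h (crosses), with bars spanning the fitted late effect plus and minus its standard error, orange where the adjusted p is under 0.05. Arsb lies far to the left of the rest at both times, and Gla, Lipa and Lgmn lie to the right at both.

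Arsb differed most. With αKG it read 8.55, 8.35, 8.31 and 7.80 at 3, 6, 12 and 24 h, within 0.10 of DW at each, and then 8.41 and 9.41 at 48 and 72 h, where DW read 9.73 and 11.28. The 48 h αKG array was below both 0 h arrays and the 72 h array above them. The late effect was −1.59 ± 0.13 (adjusted p = 0.000762, limma), −1.32 at 48 h and −1.87 at 72 h, and the mean of its 2 features gave −1.74. The late effect differed from the early one by −1.65 ± 0.18 (adjusted p = 0.0156, limma), which 0.605% of all genes passed and no other gene of the list did. That difference was lost on leaving out the pair at 3 h or at 6 h. Further lysosomal genes passed without the 48 h pair, which leaves a single pair for the late phase. In the runs with a pair left out the number called among all genes moved as well.

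Naglu read 8.14 and 9.02 with αKG in the late phase and 8.52 and 9.76 with DW, a difference of −0.56 ± 0.12 (adjusted p = 0.0318, limma). Hexa read 10.54 and 11.29 against 10.93 and 11.84, a difference of −0.47 ± 0.07 (adjusted p = 0.0112, limma). In both genes the αKG value lay below DW at 48 h and at 72 h, and each arm kept its step up at 72 h. Smpd1 read 7.60 and 7.99 with αKG and 7.97 and 9.23 with DW, a difference of −0.81 ± 0.18 (adjusted p = 0.0392, limma). The gap was −0.38 at 48 h and −1.24 at 72 h, and without the 72 h pair the effect did not pass. With the mean of its 2 features the effect was −0.74 and the adjusted p 0.0692.

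Gla, the α-galactosidase that removes galactose from globotriaosylceramide, read 9.86 and 10.11 with αKG and 9.43 and 9.54 with DW, against 9.67 and 9.75 at 0 h. The αKG arrays were above 0 h and the DW arrays below it, and the difference was 0.50 ± 0.09 (adjusted p = 0.0186, limma). Lipa read 12.02 and 12.11 against 11.57 and 11.84, a difference of 0.36 ± 0.07 (adjusted p = 0.0229, limma). Lgmn read 10.93 and 11.45 against 10.62 and 11.17, a difference of 0.29 ± 0.06 (adjusted p = 0.0351, limma), and both arms were below 0 h. Lipa and Lgmn are also the 2 genes that fell in late DW, and both comparisons use the same DW arrays.

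The other 29 genes did not pass in the late phase. The nearest were Lamp2, higher with αKG at 48 and 72 h by 0.31 and 0.26 (0.29 ± 0.07, adjusted p = 0.0683, limma), and Gm2a, lower by −0.14 and −0.63 (−0.39 ± 0.11, adjusted p = 0.0861, limma). Npc2 and Cd63, which rose in late DW, differed between the arms by −0.14 ± 0.07 and −0.16 ± 0.09. None of the 9 membrane proteins and none of the 4 enzymes for glycogen and glycoprotein sugars passed, with 2 and 1 of them under an unadjusted p of 0.05. Of all 15526 genes tested, 2979 were under it. Leaving out the pair at 72 h or at 48 h leaves a single pair for the late phase. Without the 72 h pair only Arsb and Lipa kept their calls. Without the 48 h pair all 7 genes called kept theirs and further ones passed. In these runs the number called among all genes moved as well. Without the time block none passed.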

How the data were processed

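The authors deposited 1 table of log2 expression values for 16 arrays. Their range, 0.61 to 13.25, is the basis for the log base. Biotin-labelled RNA was hybridised, per the labels' protocols; how signals were corrected, normalized and summarised, and on which build, is not given in the sources used here. Of 33793 features, 23521 named 1 gene, 1814 several and 8458 none. The lysosomal genes and the other lists were chosen with earlier results of these data known. Any of the lysosomal genes could be named, and of each other list up to 4 genes with the smallest p past the threshold in a comparison, plus Tfeb, Tfe3, Mitf, Tfec, Ctsk, Acp5 and Mmp9; repeats of such a gene at another time are also given.

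The lowest 30% of genes by mean (under 4.34) were left out, and limma 3.58.1 in R 4.3.3, with an intensity trend, was fitted over the remaining 15526. The fits were 8 groups of 2 arrays (8 residual degrees of freedom), 1 αKG effect with time as a block (5), effects per phase with that block (3), slopes in log2 time (8) and differences between times with an arm term (5). Errors are standard errors, and p-values were adjusted by Benjamini-Hochberg over the 15526 genes and called under 0.05. DW and αKG arrays of 1 time deviated together, with correlations of 0.502 to 0.749, and 12 of 12 arrays correlated best with the other array of their own time, so time was used as the block, the number on the arrays being the culture time. The fits were run on simulated data whose noise was independent between arrays. That run lacked the shared deviation of arrays of 1 time, so it does not test the fits under this design. Arrays give no read depth, and their number limits the precision. Normalization, filters, features per gene, the intensity trend, the blocks and each array or pair left out were varied.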

Additional observations from a re-analysis of the deposited data

Results flagged for a closer look

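The αKG effect differed between the late and the early phase for 1 of the 36 listed genes and for 2 of 22 other lysosomal enzymes, by a test of the difference itself that 0.605% of all genes passed (limma, Benjamini-Hochberg over all genes tested). For Arsb the late effect minus the early one was −1.65 ± 0.18 on the log2 scale (adjusted p = 0.0156). Pld4, a phospholipase D family member of endosomes and lysosomes, gave 0.70 ± 0.11 (adjusted p = 0.0379), and Smpdl3b, a relative of the acid sphingomyelinase, 0.96 ± 0.17 (adjusted p = 0.0495). All 3 calls were lost without the time block, and on leaving out the pair of arrays at 3 h or at 6 h, where 1 gene of all those tested passed. Smpdl3b kept its call in 3 of 11 alternatives, Pld4 in 7 and Arsb in 8, and those for Pld4 and Smpdl3b were run after the data had been seen.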

How the results depend on the processing

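Counts are of lysosomal genes called, out of 36, and no result reversed. In most comparisons the number called among all genes also moved when an array or pair was left out. A moved count is therefore not a result about the lysosomal genes alone. DW early against 0 h gave 1 gene in place of 0 with only the 2 groups fitted. DW late gave 3 in place of 5 with no filter on low values and 0 with only the 2 groups fitted. αKG over 6 times gave 0 in place of 1 with no filter, with no intensity trend, with the mean of a gene's features, and without the time block. αKG late gave 1 in place of 7 with no intensity trend and 0 without the time block, and late minus early gave 0 in place of 1 without the block. The DW slope gave 1 in place of 0 with time in hours. With 1 array or pair left out, counts ran from 0 to 6 for DW late, 0 to 2 for αKG over 6 times, 2 to 10 for αKG late, 0 to 6 for late minus early, 0 to 1 for the DW slope, 4 to 13 for 12 h, 13 to 25 for 72 h and 0 to 3 for 48 h against 24 h. Without the arm term the time steps gave 12, 20 and 2 genes, all among those called with it. Of the single-gene results, 142 kept their call and 104 lost it with an array or pair left out, and 338 kept it and 61 lost it under other settings. The limits are 2 arrays per group, 1 array per arm and time, and values normalized before deposit.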

Other observations

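Lysosomal genes outside the list were also called in the late phase. In late DW against 0 h, 4 of 28 genes that sort proteins to the lysosome rose and 1 fell, where 3.34% of all genes tested were higher and 3.3% lower. Snx10, a sorting nexin needed for osteoclast resorption, rose by 1.74, Igf2r by 1.33, Gnptab, which makes the mannose phosphate tag, by 1.14 and M6pr by 0.41, while Vps26a changed by −0.51. With αKG against DW in the late phase none of the 28 was higher (2.09% of all genes) and 3 were lower (2.18%): Snx10 (−1.04), Gnptab (−0.97) and Vps39 (−0.61).

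Of 32 other membrane proteins, 3 rose and 3 fell in late DW, among them Clcn7, the chloride-proton exchanger of the osteoclast's resorbing membrane (1.20), and Slc11a1, a metal transporter of macrophage phagosomes (−0.64). With αKG, Clcn7 was lower (−0.75) and Slc11a1 higher (0.53), and Abcd4 was higher (0.62). Of 22 other enzymes, 1 rose in late DW, Ifi30 (0.68), and 3 fell, Galns (−0.77), Smpdl3b (−1.60) and Hgsnat (−0.58). Of the same 22, Pld4 (0.55), Smpdl3b (0.83) and Smpdl3a (0.50) were higher with αKG in the late phase and none was lower. The late comparisons share the DW arrays. All calls are limma's at an adjusted p under 0.05 over all genes tested.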
